A study of Bos taurus with 6 samples.

Results

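CISH, NR4A2, NFIL3 and CEBPD are 4 regulators whose messages are made within a short time of a hormone or stress signal. They were taken by symbol from a deposited list of 232 genes called different in muscle of Angus and Luxi cattle, and each symbol matched 1 row. RNA sequencing covered muscle of 3 Angus and 3 Luxi animals, all aged 18 months and with no treatment named. Angus is a beef breed and Luxi a cattle breed of China. The labels name neither the muscle, the sex nor the hour of sampling, and each deposited value is a breed mean. Because the genes were picked from this breed contrast, their differences are given as a description, without a test, and the p-values printed for them are the authors' own.

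CISH is a feedback inhibitor with an SH2 domain and a SOCS box. It is switched on by the transcription factor STAT5 when growth hormone or a cytokine binds its receptor, and it then dampens that receptor. NR4A2 (Nurr1) is an orphan nuclear receptor. Its gene family is known in skeletal muscle as an immediate early response to adrenergic signals and exercise. NFIL3 (E4BP4) and CEBPD (C/EBP delta) both bind DNA through a basic leucine zipper. NFIL3 represses genes of clock output that DBP and its relatives activate, and CEBPD activates genes after glucocorticoid or inflammatory signals and early in fat cell formation.

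CISH, NR4A2 and NFIL3 averaged higher in Angus, and CEBPD averaged higher in Luxi. Thus 3 of 4 were higher in Angus, against 63.4% of the whole list, and 1 of 4 in Luxi, against 36.6%. All 4 carry the authors' call, as do 100% of the genes in a table that holds only called genes. The split by direction is therefore near that of the list and says nothing particular about these genes. In whole muscle, fewer cells of a type and less RNA per cell cannot be told apart.

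Levels are given as RPKM (reads scaled to gene length and to the depth of the library), which lets genes of different length be compared. For CISH (gene identifier 616753) the authors' deposited table gives a mean of 77.2 RPKM in Angus against 15.6 RPKM in Luxi, a 4.95-fold excess. The authors' deposited table puts NR4A2 (540245) at 15.2 RPKM in Angus against 5.61 RPKM in Luxi, or 2.71-fold. The means of NFIL3 (506097) in the authors' deposited table are 17.1 RPKM in Angus against 7.16 RPKM in Luxi, or 2.38-fold. CEBPD (281678) runs the other way in the authors' deposited table, with 94.1 RPKM in Luxi against 46.7 RPKM in Angus, or 2.01-fold. The inhibitor of cytokine receptors thus had the largest ratio, and the glucocorticoid-responsive factor had the smallest ratio and the opposite sign.

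**Figure D1:**
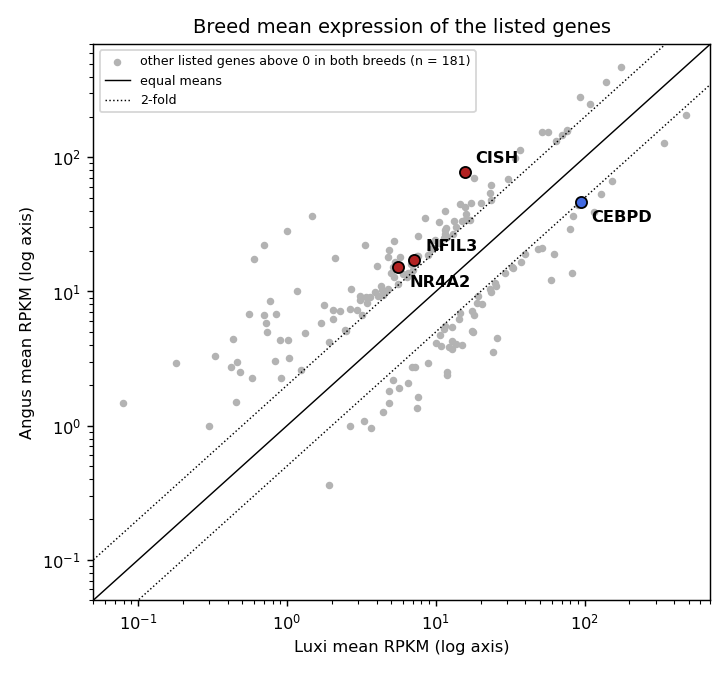
Breed mean RPKM of the listed genes above 0 in both breeds, Luxi on the horizontal and Angus on the vertical log axis; each point is 1 gene, the solid line marks equal means and the dotted lines a 2-fold difference. CISH, NR4A2 and NFIL3 (red) lie above the upper dotted line, and CEBPD (blue), at 46.7 and 94.1 RPKM, lies on the lower one.

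The breeds differed in which of the 4 messages was most abundant. In Angus the order was CISH, CEBPD, NFIL3 and NR4A2, with CISH 1.65 times the level of CEBPD. In Luxi it was CEBPD, CISH, NFIL3 and NR4A2, with CEBPD 6.03 times the level of CISH. NFIL3 and NR4A2 were neighbours at the bottom in both breeds, 1.12-fold apart in Angus and 1.28-fold apart in Luxi. Those gaps of 1.89 RPKM in Angus and 1.55 RPKM in Luxi were smaller than the smallest SD that NFIL3 can have over its libraries, 2.93 RPKM in Angus and 3.75 RPKM in Luxi (n = 3 each). The lead of CISH over CEBPD in Angus, 30.5 RPKM, was also smaller than the smallest SD of CISH there, 51.7 RPKM (n = 3). For the lead of CEBPD over CISH in Luxi, 78.5 RPKM, and over NFIL3 in Angus, 29.7 RPKM, and of CISH over NFIL3 in Luxi, 8.43 RPKM, the libraries leave the SD of the higher gene on either side of the gap. The members were read in the same libraries, so the SD of 1 gene is not the spread of a gap within libraries. Among all 232 listed genes CISH held level rank 16 in Angus and 59 in Luxi, and CEBPD rank 25 in Angus and 10 in Luxi.

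Among the 122 genes above 0 in both breeds and higher in Angus, the median ratio was 2.67-fold. CISH ranked 21 of these by ratio, NR4A2 60 and NFIL3 78. Among the 63 such genes higher in Luxi the median ratio was 2.62-fold, and CEBPD had the smallest ratio of the 63. The list begins at a ratio of 2-fold, and 1 of its 232 genes had a smaller ratio than CEBPD. CEBPD therefore sits just inside the limit of the list, and it dropped below 2-fold when 1 RPKM was added to both means (log2 ratio -0.99).

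The reads behind each mean were 2492 in Angus and 541 in Luxi for CISH, 736 and 287 for NR4A2, 544 and 242 for NFIL3, and 1259 and 2696 for CEBPD, each summed over 3 libraries. Counting error alone left the ratio of summed reads, scaled to depth, at 4.44-fold to 5.37-fold for CISH (exact 95% interval). The same interval was 2.37-fold to 3.12-fold for NR4A2, 2.04-fold to 2.78-fold for NFIL3 and 1.89-fold to 2.16-fold for CEBPD. These intervals take no account of the spread between animals.

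The whole reads in each library were recovered from the deposited means, since the mean count fixes the sum of reads and the mean RPKM weights each library by its depth. Recovered depths ran from 5429317 to 5736365 reads in Angus and from 5799075 to 6047227 reads in Luxi. Libraries are called deepest, middle and shallowest within a breed. They cannot be matched to single animals from the labels. For these 4 genes several sets of whole reads fit the means equally well, so each library has a range. The difference between the deepest and the shallowest library is fixed much more closely than the middle library.

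**Figure D2:**
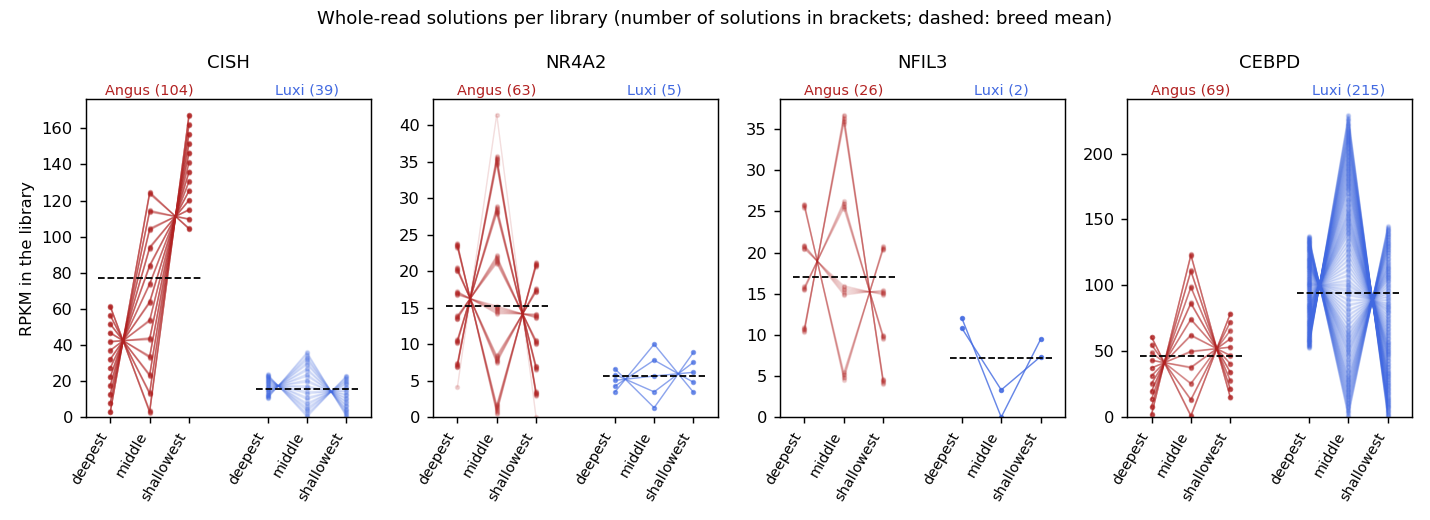
RPKM of each gene in the deepest, middle and shallowest library of Angus (red) and Luxi (blue); each line joins the 3 values of 1 set of whole reads that fits the deposited means, the dashed line is the breed mean, and the number of sets is in brackets. In all Angus sets of CISH the shallowest library, at 104 to 168 RPKM, lies above the deepest. NFIL3 has only 2 sets in Luxi, both lowest in the middle library.

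CISH, the feedback inhibitor of cytokine receptors, was uneven among the Angus animals in all 104 sets of reads. The shallowest Angus library held 1103 to 1776 CISH reads, or 104 to 168 RPKM. The deepest Angus library held 29 to 690 reads (2.59 to 61.6 RPKM), and the middle one 26 to 1360 reads (2.39 to 125 RPKM). CISH was thus 101 to 106 RPKM higher in the shallowest than in the deepest Angus library, a gap larger than the Angus mean itself. The shallowest library was the highest of the 3 in 87 sets and the middle one in 17. The SD over the Angus libraries was at least 51.7 and at most 83.7 RPKM (n = 3), at least 67.0% of the mean.

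In Luxi the deepest library held 123 to 280 CISH reads (10.4 to 23.7 RPKM), the middle one 0 to 415 (0 to 36.1 RPKM) and the shallowest 3 to 261 (0.265 to 23.1 RPKM), over 39 sets. The SD of CISH over the Luxi libraries lay between 2.48 and 18.5 RPKM (n = 3). The top Luxi library reached at most 36.1 RPKM, and the top Angus library at least 113 RPKM. Over all 4056 combinations of an Angus and a Luxi set, at least 2 of the 3 Angus libraries lay above every Luxi library. All 3 did so in 1668 combinations, so whether the lowest Angus library overlapped the Luxi libraries was not determined. Without the shallowest Angus library the log2 ratio of CISH fell from 2.31 to between 1.04 and 2.03. It stayed above 2-fold in all 104 sets there, and in every set whichever of the other libraries was left out.

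NR4A2, the adrenergic and exercise-responsive nuclear receptor, had 63 sets of reads in Angus and 5 in Luxi. The 5 Luxi sets, from the deepest to the shallowest library, were 60, 170 and 57 reads, 74, 133 and 80 reads, 88, 96 and 103 reads, 102, 59 and 126 reads, and 116, 22 and 149 reads. No Luxi library exceeded 9.99 RPKM in any of them, and the SD lay between 0.556 and 3.904 RPKM (n = 3). In Angus the deepest library held 68 to 395 NR4A2 reads (4.10 to 23.8 RPKM), the middle one 8 to 668 (0.497 to 41.5 RPKM) and the shallowest 0 to 333 (0 to 21.2 RPKM). The deepest Angus library was 2.60 to 4.10 RPKM higher than the shallowest in all 63 sets. The middle Angus library can therefore hold from 1.09% to 90.8% of the NR4A2 reads of its breed.

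An even spread was among the NR4A2 sets, with 278, 244 and 214 Angus reads and 88, 96 and 103 Luxi reads. These sets gave 13.6 to 16.8 RPKM in the Angus and 5.04 to 6.15 RPKM in the Luxi libraries, with no overlap. The top Angus library reached at least 16.7 RPKM in every set, so at least 1 Angus library lay above all Luxi libraries in all 315 combinations. All 3 did so in 134 of them. Leaving out the middle Angus library moved the log2 ratio of NR4A2 from 1.44 to anywhere between -1.45 and 2.01, higher in Angus in 51 of 63 sets. With any other library left out it was higher in Angus in every set, with a lowest log2 ratio of 0.95.

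NFIL3, the clock repressor, is the member whose Luxi reads were best resolved. The Luxi libraries held either 124, 37 and 81 reads or 138, 0 and 104 reads, from deepest to shallowest. That is 10.8 to 12.03 RPKM in the deepest, 0 to 3.31 RPKM in the middle and 7.36 to 9.45 RPKM in the shallowest library. The order of the Luxi animals was thus the same in both sets, with the middle library lowest, and the SD was 3.75 or 6.33 RPKM around a mean of 7.16 (n = 3).

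In Angus, NFIL3 had 26 sets, with 113 to 282 reads in the deepest library (10.4 to 25.9 RPKM), 48 to 389 in the middle one (4.54 to 36.8 RPKM) and 42 to 214 in the shallowest (4.08 to 20.8 RPKM). The deepest Angus library was 5.14 to 6.31 RPKM above the shallowest in each set. All 3 Angus libraries lay above all Luxi libraries in 14 of 52 combinations, and at least 1 did in all 52. The low middle Luxi library bore on the ratio. Without it, the log2 ratio of NFIL3 was 0.67 or 0.91 instead of 1.25, below 2-fold in both sets. Without the middle Angus library it lay between 0.014 and 1.70. NFIL3 stayed higher in Angus in every set whichever library was left out.

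CEBPD, the glucocorticoid-responsive activator, was the only one of the 4 higher in Luxi, and the least resolved, with 69 sets in Angus and 215 in Luxi. In Luxi the deepest library held 514 to 1339 reads (52.7 to 137 RPKM), the middle one 2 to 2182 (0.21 to 229.5 RPKM) and the shallowest 0 to 1355 (0 to 145 RPKM). In Angus the deepest library held 16 to 566 reads (1.73 to 61.1 RPKM), the middle one 3 to 1113 (0.33 to 124 RPKM) and the shallowest 130 to 690 (14.8 to 78.7 RPKM). The shallowest Angus library was 13.1 to 17.6 RPKM above the deepest in all 69 sets.

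The most even CEBPD sets were 348, 443 and 468 reads in Angus and 1006, 882 and 808 reads in Luxi. They gave 37.6 to 53.4 RPKM in the Angus and 86.3 to 103 RPKM in the Luxi libraries, with no overlap. The SD of CEBPD can be as low as 8.20 RPKM in Angus and 8.45 RPKM in Luxi, or as high as 66.9 and 120.2 RPKM (n = 3 each). Between no and all 3 Luxi libraries lay above every Angus library, and all 3 did in 2032 of 14835 combinations. With the middle Luxi library left out, the log2 ratio of CEBPD lay between -1.59 and 0.83, and it kept the sign of a higher Luxi level in 170 of 215 sets. With any other library left out CEBPD stayed higher in Luxi in every set, though not always by 2-fold.

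**Figure D3:**
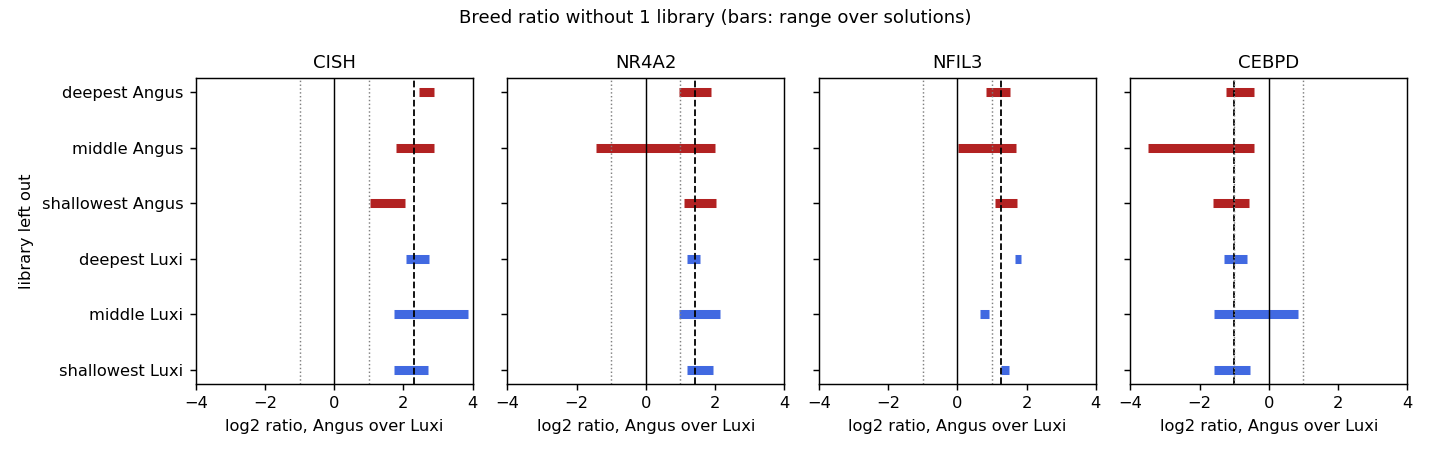
Log2 ratio of Angus over Luxi for each gene when the library named on the vertical axis is left out; bars span all sets of reads, red bars leave out an Angus and blue bars a Luxi library, the dashed line is the ratio with all libraries, and dotted lines mark 2-fold. CISH stays right of the 2-fold line throughout, whereas NR4A2 crosses 0 without the middle Angus library and CEBPD without the middle Luxi library.

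The 4 genes did not rank the Angus libraries alike. The shallowest Angus library exceeded the deepest in every set for CISH and CEBPD, and the deepest exceeded the shallowest in every set for NR4A2 and NFIL3. The deepest Angus library was the highest for CISH in no set, and the shallowest was the highest for NFIL3 or NR4A2 in no set. In Luxi the deepest library exceeded the shallowest in every set for CISH and NFIL3, in 185 of 215 sets for CEBPD and in 1 of 5 sets for NR4A2. CISH and CEBPD, which averaged higher in opposite breeds, thus shared the order of the 2 outer libraries in Angus.

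The p-value deposited for CISH was 7.58e-109, for NR4A2 1.52e-18 and for NFIL3 1.18e-11, in the authors' deposited table. For CEBPD the authors' deposited table lists a p of 0. Of the 10 listed genes with a deposited p of 0, 9 were higher in Luxi. The smallest deposited p above 0 was 4.44e-16 among genes higher in Luxi and 1.01e-235 among genes higher in Angus. The 0 therefore does not place CEBPD ahead of the other members. The members all have a deposited p below 1e-10. Of the 130 listed genes above that limit, 121 had their p matched to within 5%. The match was to a test of a pair of Poisson counts that treats each breed as 1 library. Such a test holds no term for the spread between animals. CISH had the smallest p of the 3 above 0, beside an SD of at least 67.0% of its Angus mean.

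Other genes of the same pathways were counted from lists of 107 genes in all, 103 of them other than the 4. Each list holds at least 1 of the 4, so at least 1 listed gene in each was fixed in advance. Of the 103 other genes 1 was listed. In the growth hormone and cytokine list, which holds the SOCS genes, STAT5A, STAT5B and IGF1, CISH was the 1 listed gene of 23. In the adrenergic and cAMP list, with NR4A1, NR4A3, FOS and PPARGC1A, NR4A2 was the 1 listed gene of 20. In the clock list, with the PER and CRY genes, DBP and NR1D1, NFIL3 was the 1 listed gene of 21. The glucocorticoid list had 2 of 25, CEBPD and GADD45A, a growth arrest gene. Its means in the authors' deposited table were 37.5 RPKM in Luxi against 16.6 RPKM in Angus, or 2.26-fold. Of the 15 basic leucine zipper genes 2 were listed, NFIL3 and CEBPD, in opposite directions, and of the 17 SOCS box adaptors 1, CISH. The levels of the other 102 genes are not analysed here, since the table holds only genes past the authors' filter. For the same reason the share listed among all measured genes is not known, and these counts cannot be set against it.

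The deposited gene ontology terms for DNA binding or transcription were carried by NR4A2, NFIL3 and CEBPD and by other listed genes, of which the following were picked after the values were seen. SIX2, a homeobox factor, had a mean of 7.24 RPKM in Angus against 2.97 RPKM in Luxi (2.43-fold, the authors' deposited table) and was higher in Angus, as were NR4A2 and NFIL3. GABPB2, a subunit of a factor for mitochondrial genes, was 3.12-fold higher in Luxi by the authors' deposited table, as CEBPD was higher there. SKAP1 and MSRB2 also carry such a term, though they encode an adaptor of T cells and an enzyme that repairs oxidised methionine. Of the 148 listed genes with any term, 66.2% were higher in Angus.

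For SIX2 the reads of each Angus library had a single solution, 109, 61 and 16 from the deepest to the shallowest library. The deepest Angus library exceeded the shallowest, the order of the outer libraries that NR4A2 and NFIL3 also had and that CISH and CEBPD did not.

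By the exact term deposited, NFIL3 was the 1 listed gene with rhythmic process, and CISH the 1 with signal transduction. Broader and narrower terms were not joined, and 3 listed genes, NR4A2 among them, carried the term cell communication. Terms that members shared with other listed genes differed in direction, and are set beside the 66.2% of annotated listed genes that were higher in Angus. The term response to stress was shared by NR4A2 and 4 further genes, IL17RB, TPSB1, KRT8 and NDUFB4, of which all 5 were higher in Angus. The term cell growth was shared by CISH, IL17RB, WISP2, IGFBP5 and an unnamed sequence cluster, of which all 5 were higher in Angus. Of the 11 genes with the term identical protein binding, CEBPD among them, 5 were higher in Angus and 6 in Luxi. Of NR4A2, CEBPD and GABPB2, which carry the term protein dimerization activity, 1 was higher in Angus and 2 in Luxi. Both genes with the term sequence-specific DNA binding, CEBPD and GABPB2, were higher in Luxi. These terms were picked after the values were seen, and nothing particular to a term was tested. No protein-coding gene directly beside a member in the RefSeq order of genes was listed, and 4 of the 143 listed genes that could be placed had such a neighbour.

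The genes whose pair of breed means lay nearest to each member, by distance on log2 axes among 134 other named genes, were found over 2 breed means only. For CISH they included LOC100335819 and PPP1R15A, at distances of 0.26 and 0.66. For NR4A2 they were ADIPOQ, ACADL and MYH3 (0.13, 0.21 and 0.21), and for NFIL3 LANCL1, CYLD and TPRG1L (0.03, 0.12 and 0.12). For CEBPD they included EIF4EBP1 and CST6 (0.11 and 0.39). CISH had no named gene closer than 0.26, whereas the genes printed for NR4A2 and NFIL3 all lay within 0.21.

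Listed markers of some other cell types were higher in Angus, as were 63.4% of the whole list. Of the adipocyte markers 2 of 6 were listed, both higher in Angus, with a summed level of 18.8 RPKM in Angus and 5.14 RPKM in Luxi, and CIDEC at 0 in Luxi. Of the mast cell markers 3 of 4 were listed, at 9.88 against 1.80 RPKM, all higher in Angus. The fibroblast and tendon list had COMP alone, 1.45 RPKM in Luxi and 0 in Angus. With a minimum of 1 RPKM in both breeds, 1 adipocyte marker and 0 mast cell or fibroblast and tendon markers were left. None of the immune cell, endothelial and red blood cell markers was listed. Of the 12 muscle markers 2 were listed, both also higher in Angus. MYL3 was at 365 RPKM in Angus against 139 RPKM in Luxi, and MYH4 at 28.3 against 1.00 RPKM. Defining genes of the labelled tissue were thus present in both breeds, though MYH4 was low in Luxi. The part of these cell types in the levels of CISH, NR4A2, NFIL3 and CEBPD was not tested.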

How the data were processed

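The authors deposited 1 table of 232 genes with, per breed, a mean raw read count over 3 libraries and a mean RPKM, per the file headers and the values. It also holds the authors' log2 ratio (Luxi over Angus), p-value and FDR, per the file headers. The aligner, gene set, strandedness and test: not given in the sources used here. Gene identifiers of 4 of 4 members matched RefSeq (ARS-UCD2.0), used for names and gene order alone. Columns of values per sample left unused numbered 0.

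Reads per library came from a search for depths at which every gene has whole reads that give its mean count and its RPKM to 6 digits. It left 1 set of depths per breed, each depth known to within 4 reads, and a single solution for 82 Angus and 56 Luxi genes. The method was tested on simulated data. All solutions were carried forward, unweighted, and shares of solutions are not probabilities. Exact intervals (Clopper-Pearson, 95%) cover only counting error, as they were taken on reads summed over the 3 libraries of a breed. The sources used here name no molecular identifiers, so reads copied from 1 molecule could not be told apart. The deposited p-values were compared, over the whole table, with the test of Audic and Claverie, doubled. Of 130 genes with a deposited p above 1e-10, 121 matched to within 5%.

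The 4 members, the gene lists and the analyses were chosen with earlier results of these data known. Named genes are the members, the 3 nearest genes to each by breed means, and every listed gene of a list, apart from some genes and 1 marker list that are not reported here. Genes of the ontology groups were added after their values were seen. Python 3.11.15, numpy 2.4.6, scipy 1.17.1 and numba 0.67.0 were used. A promoter motif search was planned and not run.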

Additional observations from a re-analysis of the deposited data

How the results depend on the processing

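No paired analysis was possible because the labels give no replicate numbers shared by the breeds and the table holds breed means. Leaving out 1 library gave log2 ratios of Angus over Luxi of 1.04 to 3.85 for CISH, -1.45 to 2.15 for NR4A2, 0.014 to 1.85 for NFIL3 and -3.51 to 0.83 for CEBPD, over all sets of reads. Without the middle Angus library NR4A2 kept its direction in 51 of 63 sets. Without the middle Luxi library CEBPD kept its direction in 170 of 215 sets. The median of 3 libraries in place of the mean gave 0.89 to 3.40 for CISH, -0.69 to 2.63 for NR4A2, 0.14 to 1.50 for NFIL3 and -3.21 to 0.22 for CEBPD. The sign of NR4A2 and CEBPD was thus not determined for the median, because the middle library is the least well fixed. Adding 1 or 0.1 RPKM, unscaled counts, and summed reads over summed depth moved each ratio by less than its counting error. With 1 RPKM added CEBPD was at -0.99, under the 2-fold limit. A minimum of 1 RPKM in both breeds changed no count of listed pathway genes, but took the listed adipocyte markers from 2 to 1, the mast cell markers from 3 to 0 and the fibroblast and tendon markers from 1 to 0.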
